A study of Mus musculus with 8 samples.

Results

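The genes described here are 41 mouse genes listed as targets of the transcription factor MYC whose products act outside ribosome assembly: in polyamine and nucleotide synthesis, one-carbon metabolism, protein folding, mitochondrial import, translation, membrane transport and nuclear transport. They were listed by name, with earlier results of these data known, and all 41 were found among the 23358 genes of the count table. The libraries were made from hematopoietic stem cells sorted from mouse bone marrow as Lin-Sca+Kit+CD48-CD150+ cells, collected without culture and without treatment per the labels. The groups were Huwe1 KO (Mx1-Cre) with 3 libraries, Huwe1 KO (Vav-Cre) with 2 libraries and wild type with 3 libraries. Huwe1 encodes a ubiquitin ligase of the HECT family, and MYC proteins are among its reported substrates. Per the series' design text, Mx1-Cre deletes the gene inducibly and Vav-Cre deletes it constitutively. Mx1-Cre is driven by an interferon-responsive promoter, and Vav-Cre is active throughout the blood system. Whether animals of any group received an inducer is not stated here. Any effect of induction therefore cannot be told apart from loss of Huwe1 in comparisons with Mx1-Cre libraries. The labels give neither the animals' age or strain nor the genotype of the wild type at the Cre loci, and they do not say that replicates are separate animals. The p-values therefore measure the spread between these libraries, which may be technical.

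MYC binds DNA as a dimer with MAX, preferentially at the E-box CACGTG, and raises transcription of many genes that supply a growing cell. Ornithine decarboxylase (Odc1) and CAD, the enzyme that begins pyrimidine synthesis, are textbook targets. Blood stem cells are mostly quiescent, and their biosynthetic genes are known to increase when the cells enter division. The comparisons ask how the levels of such genes differ between stem cells without Huwe1 and wild type stem cells, and between the deletions made by the 2 Cre lines.

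The E-box CACGTG, which reads the same on both strands and has no overlap with another motif searched, was looked for in RefSeq promoter windows of build GRCm38.p6, from 250 bases before to 50 bases after each start. A window was held for 38 of the 41 genes, and Srm, Cebpz and Slc7a5 had none. The motif was found in 14 of the 38, or 36.8%, against 1190 of the 10327 tested genes with a window, or 11.5%, and 2187 of all 27025 genes with a window, or 8.09%. The 14 were Hspd1, Set, Slc16a1, Eif4e, Paics, Ran, Prmt1, Prmt3, Impdh2, Eif4a1, Nme1, Phb, Bzw2 and Apex1. Paics, Impdh2 and Bzw2 also have results given further on, but their windows are not shown. The windows of 7 other genes with such results are shown. Each is read 5′ to 3′ on the gene's strand, with the E-box in capitals and 12 bases on either side.
Hspd1, mitochondrial chaperonin, minus strand, chr1:55088306-55088335: ggccggctgggaCACGTGaaaaggccgcgc
Set, histone chaperone and phosphatase inhibitor, plus strand, chr2:30061850-30061879: gccacaggcttcCACGTGcaacccggggtt
Slc16a1, lactate carrier, plus strand, chr3:104638452-104638481: gcggcgccgggtCACGTGgcgggaaggggg
Ran, nuclear transport GTPase, plus strand, chr5:129020026-129020055: gctcggccggccCACGTGacccgccgcccc
Eif4a1, RNA helicase of translation initiation, minus strand, chr11:69672595-69672624: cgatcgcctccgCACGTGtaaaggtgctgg
Nme1, nucleoside diphosphate kinase, minus strand, chr11:93968273-93968302: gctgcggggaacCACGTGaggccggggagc
Phb, prohibitin of the inner mitochondrial membrane, plus strand, chr11:95666713-95666742: ttgaggaataggCACGTGcatatattacca
The motif's first base lay 80 bases before the start of Hspd1, 134 before that of Set, 200 before that of Slc16a1 and 118 before that of Ran. It lay 189 bases before the start of Eif4a1, 18 before that of Nme1 and 232 before that of Phb. These are RefSeq starts. For Set, Ran and Nme1 they lie inside the gene models of GENCODE M21, which begin at chr2:30057378, chr5:129020069 and chr11:93968521. Nme1 had another window, not shown, with the motif 29 bases before its own start. A match is a run of letters and does not show that MYC binds there. The 41 genes were listed as MYC targets, so their share with the motif is not independent of that choice and was not tested.

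Each library held 28689765 to 33202926 counted reads, and all 41 genes were among the 14086 that passed the filter on low counts. The smallest count of any of them in a library was 94, for Tomm40, and the largest was 59061, for Set. Levels are given as CPM, the count relative to the library total scaled by TMM factors, and differences as log2 fold changes with the SE of edgeR's quasi-likelihood fit. Huwe1 was at 444, 399 and 412 CPM in Mx1-Cre knockout libraries, 445 and 490 CPM in Vav-Cre knockout libraries and 434, 398 and 433 CPM in wild type libraries. These counts cover the whole gene and do not test the labels, since reads over a deleted exon are not told apart. Hba-a1 and Hbb-b1, which mark red cells, were at 0 in every library. How reads shared between gene copies were counted is not given, so these 0 values do not show that red cells were absent. Myc itself was at 670.4, 822 and 704 CPM in Mx1-Cre, 549.8 and 687 in Vav-Cre and 746, 634 and 546 in wild type libraries. The Myc log2 fold changes were 0.19 ± 0.15 for Mx1-Cre minus wild type (SE, adjusted p = 0.600) and -0.05 ± 0.17 for Vav-Cre minus wild type (adjusted p = 0.936).

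Mycn, which encodes the related protein N-MYC, was picked out after its values were seen. It was at 125, 87.5 and 145 CPM in Mx1-Cre, 198 and 199 in Vav-Cre and 91.1, 117 and 114 in wild type libraries. Both Vav-Cre libraries were above every other library, and Mx1-Cre libraries overlapped wild type ones. Its fold change was 0.88 ± 0.20 in Vav-Cre minus wild type (adjusted p = 0.0914), 0.74 ± 0.20 in Vav-Cre minus Mx1-Cre (adjusted p = 0.182) and 0.15 ± 0.18 in Mx1-Cre minus wild type (adjusted p = 0.758). Over the alternatives the first adjusted p ran between 0.00404 and 0.276 and the second between 0.0384 and 0.523, with DESeq2 at the low end of both.

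Of the genes of the sort, Kit overlapped between groups, at 982 to 2344 CPM in Mx1-Cre, 1629 and 1771 in Vav-Cre and 1246 to 1846 in wild type libraries. Ly6a (Sca-1) was at 42.4 to 60.7 CPM in Mx1-Cre, 50.6 and 144 in Vav-Cre and 75.5 to 96.0 in wild type libraries, so Mx1-Cre libraries were below all wild type libraries. Cd48, which the sort selects against, was at 19.2 to 22.5 CPM in Mx1-Cre, 15.2 and 15.4 in Vav-Cre and 14.8 to 16.1 in wild type libraries, highest in Mx1-Cre. Slamf1 (CD150) was at 49.0, 53.6 and 58.1 CPM in Mx1-Cre, 105 and 108 in Vav-Cre and 68.4, 62.8 and 67.3 in wild type libraries, so its 3 groups did not overlap. It rose in Vav-Cre minus Mx1-Cre, with a fold change of 0.99 ± 0.14 (adjusted p = 0.0346), and stood at 0.68 ± 0.14 in Vav-Cre minus wild type (adjusted p = 0.0632) and -0.31 ± 0.13 in Mx1-Cre minus wild type (adjusted p = 0.254). The call was lost without any 1 of the wild type or Mx1-Cre libraries or Vav-Cre 2, with adjusted p between 0.0504 and 0.127. It was also lost with only the groups compared (adjusted p = 0.166) and with the replicate number as a block (adjusted p = 0.111). The part of these genes in the results that follow was not tested.

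None of the 41 genes passed an adjusted p of 0.05 in any comparison, with p-values adjusted over all 14086 genes. In Mx1-Cre knockout minus wild type 2.49% of all genes passed. In Vav-Cre knockout minus wild type 0.511% passed, in the average of both knockout lines minus wild type 2.65%, and in Vav-Cre minus Mx1-Cre knockout 0.170%. The smallest adjusted p among the members was 0.117 for Mthfd2 in Mx1-Cre minus wild type, 0.119 for Phb in Vav-Cre minus wild type, 0.0986 for Phb in the average of both lines and 0.148 for Tfrc in Vav-Cre minus Mx1-Cre. DESeq2 called 1 member (Mthfd2) in Mx1-Cre minus wild type, 2 (Hspd1 and Phb) in Vav-Cre minus wild type, 1 (Phb) in the average and 3 (Hspd1, Tfrc and Mthfd2) in Vav-Cre minus Mx1-Cre. Limma-voom called Mthfd2 in Mx1-Cre minus wild type and Nme2 and Phb in the average, and no member in the other comparisons.

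The direction of the small differences was not the same in the 2 lines. In Mx1-Cre minus wild type 29 members had a fold change above 0 and 12 below it, with a median of 0.07, against a median of 0.01 and 51.3% above 0 over all tested genes. That split depended on scaling and on 1 library. With library totals alone it was 20 above and 21 below (median -0.01), against a median of -0.07 over all tested genes. Without Mx1-Cre 3 it was 19 above and 22 below (median -0.02). In Vav-Cre minus wild type 6 members were above 0 and 35 below, with a median of -0.21, against -0.01 and 49.0% above 0 over all genes. In the average of both lines 12 were above and 29 below, with a median of -0.07. Without Vav-Cre 2 the Vav-Cre split was 13 above and 28 below, with a median of -0.11, and without Vav-Cre 1 it was 6 and 35, with a median of -0.35. Leaving out Vav-Cre 2 changed the sign of the Vav-Cre minus wild type value for 7 of the 41 members and shrank it by over 1.5 times for 16 others. In Vav-Cre minus Mx1-Cre 3 members were above 0 and 38 below, with a median of -0.30, against 0.01 and 50.6% above 0 over all genes. That median was -0.24 without Vav-Cre 2 and -0.25 without Mx1-Cre 3. These comparisons share libraries, so their splits are not separate observations.

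At an unadjusted p under 0.05, 2 members were higher and 0 lower in Mx1-Cre minus wild type, where 6.17% of all genes were higher and 10.5% lower. In Vav-Cre minus wild type 0 were higher and 7 lower, against 5.76% and 7.64% of all genes. In the average of both lines 0 were higher and 3 lower, against 6.11% and 10.4%. In Vav-Cre minus Mx1-Cre 0 were higher and 11 lower, against 7.31% and 5.96%. No member had an absolute log2 fold change of 1 or more, and the largest were 0.76 in each line against wild type and 0.998 in Vav-Cre minus Mx1-Cre. The 95% interval lay within 1 log2 unit of 0 for 37 of 41 members in Mx1-Cre minus wild type, 33 in Vav-Cre minus wild type and 34 in Vav-Cre minus Mx1-Cre.

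**Figure D1:**
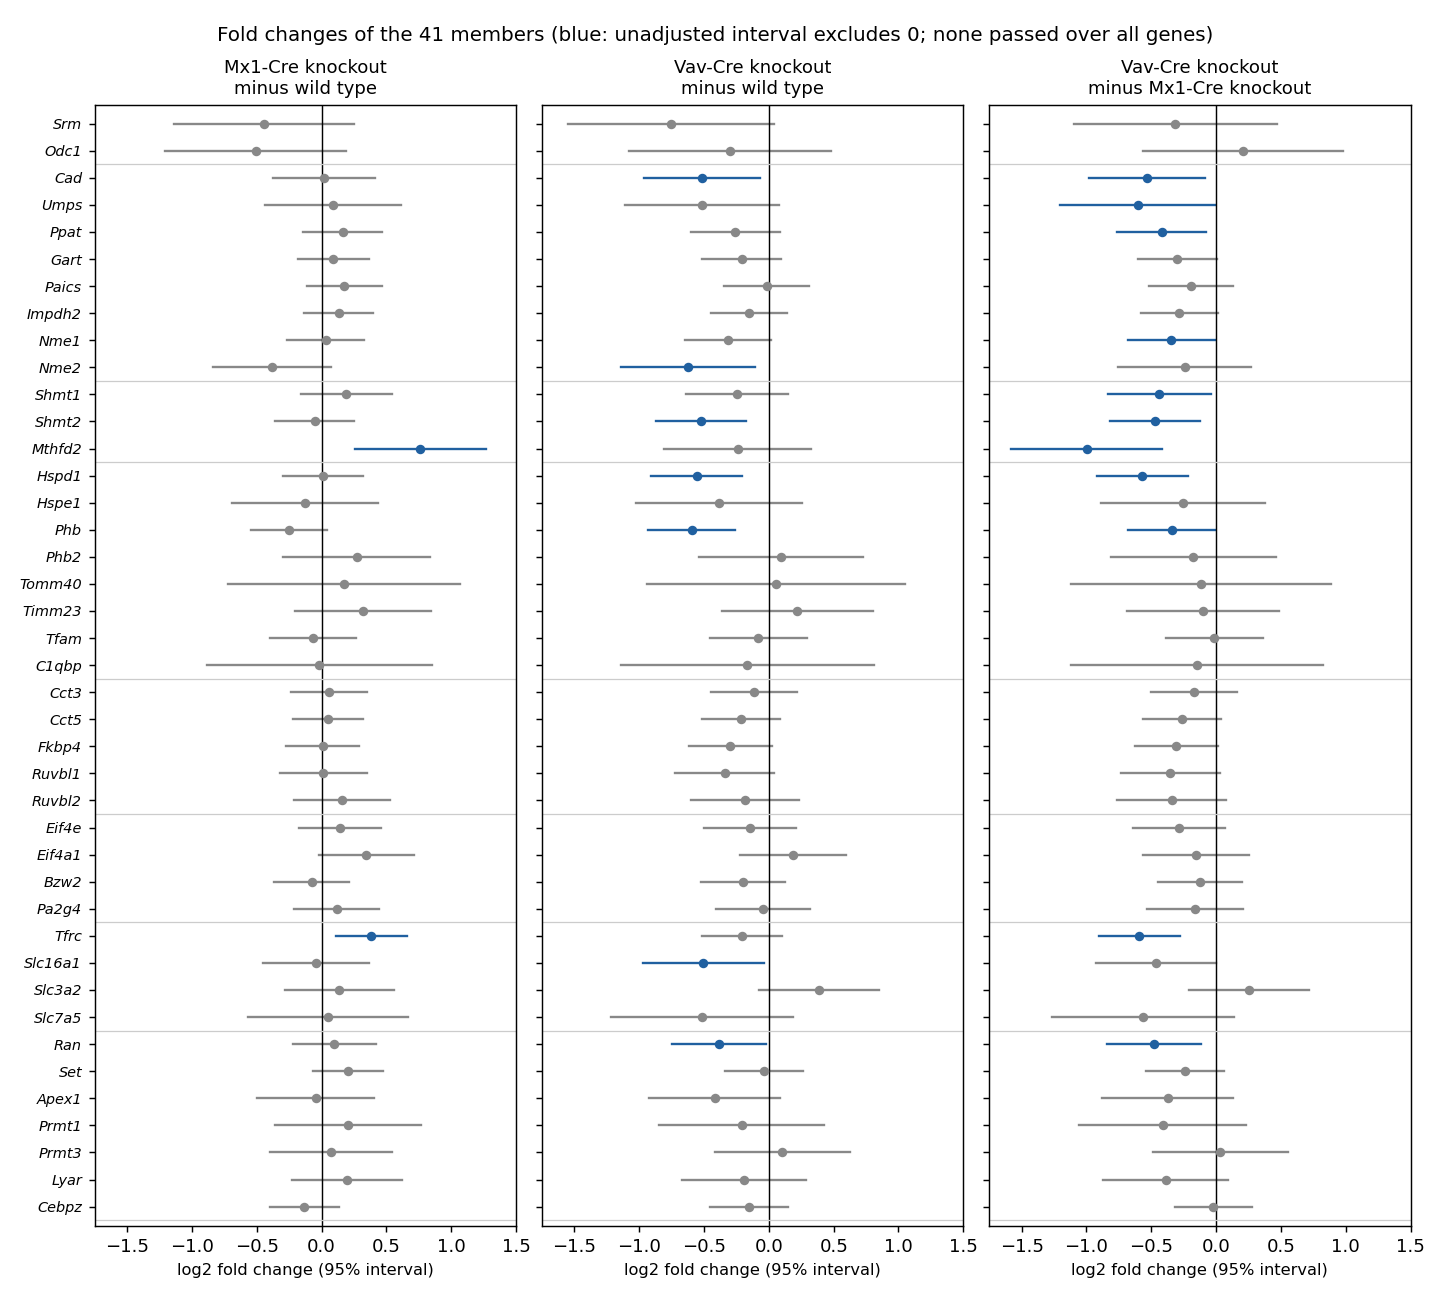
Log2 fold changes of the 41 genes (points) with unadjusted 95% intervals (lines) in 3 comparisons, ordered by role from polyamine synthesis at the top to nuclear proteins at the bottom. Blue intervals exclude 0 before adjustment (2, 7 and 11 genes from left to right), and most points lie left of 0 in the middle and right panels.

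Counted by libraries rather than by the fit, all Mx1-Cre libraries stood above all wild type libraries for 6 members (10.9% of all genes), namely Ppat, Paics, Impdh2, Mthfd2, Tfrc and Timm23, and below them for 2 members, Phb and Cebpz (14.8% of all genes). Both Vav-Cre libraries stood above all wild type libraries for 1 member, Slc3a2 (15.6% of all genes), and below them for 17 members (17.1% of all genes). The 17 were Cad, Gart, Impdh2, Nme1, Nme2, Shmt2, Hspd1, Phb, Fkbp4, Ruvbl1, Cct5, Tfrc, Slc16a1, Slc7a5, Ran, Apex1 and Cebpz. The Vav-Cre libraries stood above all Mx1-Cre libraries for 0 members (13.8% of all genes) and below them for 18 members (12% of all genes). These were Cad, Gart, Impdh2, Nme1, Ppat, Shmt1, Shmt2, Mthfd2, Hspd1, Phb, Fkbp4, Ruvbl1, Ruvbl2, Cct5, Tfrc, Slc16a1, Ran and Lyar. Relative to the wild type mean, the median of the 41 genes was 0.05, -0.06 and 0.16 log2 units in the Mx1-Cre libraries 1 to 3. It was -0.10 and -0.34 in the Vav-Cre libraries 1 and 2, and -0.11, 0.09 and 0.03 in the wild type libraries 1 to 3. Vav-Cre 1 thus lay within the wild type libraries' own range by this measure, and Vav-Cre 2 lay below it. Vav-Cre 2 was lower than Vav-Cre 1 for 31 of the 41 members, against 49.4% of all genes. Mx1-Cre 3 was the highest of its group for 28 members, against 37.3% of all genes, and wild type 1 the lowest of its group for 26, against 42.7%.

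**Figure D2:**
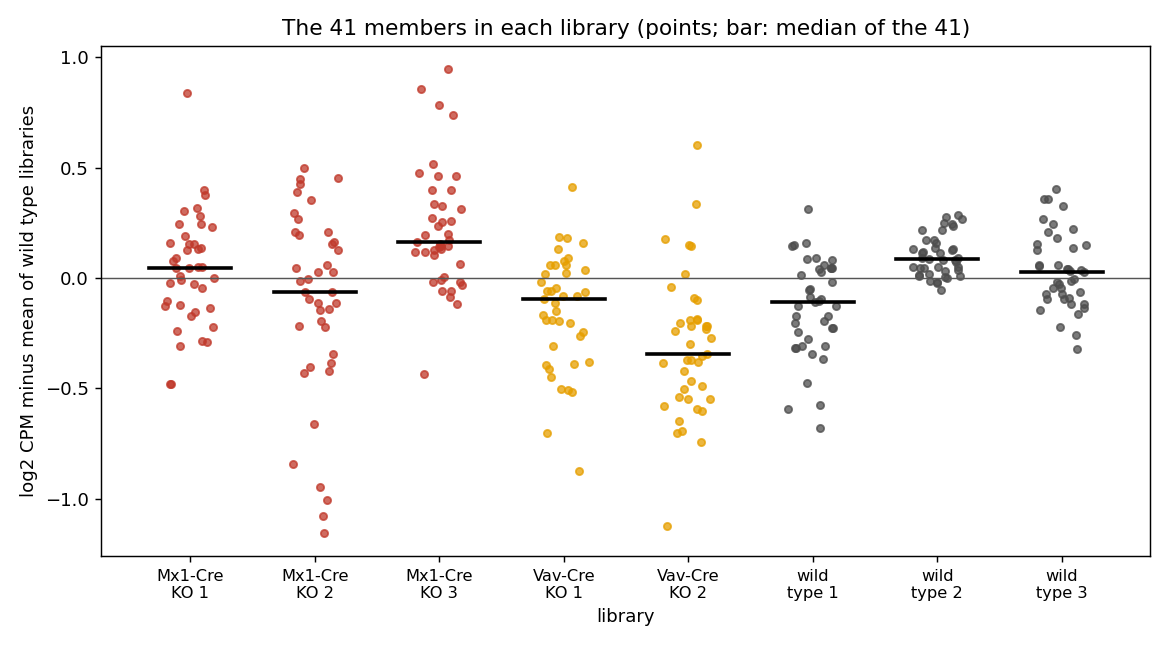
Each point is 1 of the 41 genes in 1 library, as log2 CPM minus the gene's mean over the wild type libraries, and the bar is the median of the 41. The bar is lowest in Vav-Cre 2, at -0.34, and highest in Mx1-Cre 3, at 0.16.

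Among the enzymes of polyamine synthesis, Srm (spermidine synthase) and Odc1 had negative fold changes in both lines and wide errors. Srm was at 33.4, 22.1 and 51.4 CPM in Mx1-Cre, 25.4 and 31.9 in Vav-Cre and 31.2, 55.4 and 58.5 in wild type libraries. Odc1 was at 32.7, 17.3 and 35.5 CPM in Mx1-Cre, 32.2 and 33.7 in Vav-Cre and 24.1, 46.7 and 50.9 in wild type libraries. Wild type 1 was far below the other wild type libraries for both enzymes, so the groups overlapped. The Srm fold changes were -0.44 ± 0.31 in Mx1-Cre (adjusted p = 0.535) and -0.76 ± 0.36 in Vav-Cre (adjusted p = 0.395). For Odc1 they were -0.51 ± 0.31 (adjusted p = 0.465) and -0.30 ± 0.35 (adjusted p = 0.786). Of 14 listed genes of the polyamine pathway, 11 were tested and none was called in any comparison. Amd1, Amd2 and Oaz1 were not tested, with at most 7 counted reads in any library, so nothing is known of their levels here. The gene with the smallest p was Smox, spermine oxidase, in Mx1-Cre minus wild type, with a fold change of -0.80 ± 0.30 (adjusted p = 0.200).

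The 8 nucleotide enzymes were all below 0 in Vav-Cre minus wild type, with a median of -0.29, while 7 of 8 were above 0 in Mx1-Cre minus wild type, with a median of 0.09. With library totals alone 5 of 8 were above 0 in Mx1-Cre, where the median over all tested genes was -0.07, and none in Vav-Cre. Without Vav-Cre 2, 7 of 8 were below 0 in Vav-Cre minus wild type, with a median of -0.15. None was called under either scaling. Cad was at 236, 139 and 178 CPM in Mx1-Cre, 134 and 122 in Vav-Cre and 194, 181 and 173 in wild type libraries. Both Vav-Cre libraries were below every other library, and the Mx1-Cre libraries spanned the wild type ones. Its fold change was -0.51 ± 0.20 in Vav-Cre minus wild type (adjusted p = 0.294), -0.53 ± 0.20 in Vav-Cre minus Mx1-Cre (adjusted p = 0.299) and 0.02 ± 0.18 in Mx1-Cre minus wild type (adjusted p = 0.978). The sign of that last value turned with library totals, upper quartile scaling and limma-trend.

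Ppat, which begins purine synthesis, and Paics, which carries out later steps of it, start 271 bases apart on opposite strands of chromosome 5 (GENCODE M21, GRCm38). Ppat was at 202, 209 and 196 CPM in Mx1-Cre, 175 and 127 in Vav-Cre and 188, 174 and 180.0 in wild type libraries. Paics was at 719, 748 and 728 CPM in Mx1-Cre, 732 and 547 in Vav-Cre and 668, 669 and 605 in wild type libraries. For both genes every Mx1-Cre library was above every wild type library, and Vav-Cre 2 was the lowest of all libraries. The Mx1-Cre fold changes were 0.16 ± 0.14 for Ppat (adjusted p = 0.617) and 0.18 ± 0.13 for Paics (adjusted p = 0.561). In Vav-Cre minus wild type they were -0.26 ± 0.15 for Ppat (adjusted p = 0.510) and -0.02 ± 0.15 for Paics (adjusted p = 0.980). Without Vav-Cre 2 the Vav-Cre minus wild type values were -0.0457 for Ppat and 0.18 for Paics, and without Vav-Cre 1 they were -0.51 and -0.24. In Vav-Cre minus Mx1-Cre Ppat was at -0.42 ± 0.15 (adjusted p = 0.285) and Paics at -0.19 ± 0.15 (adjusted p = 0.628).

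Nme1 and Nme2, nucleoside diphosphate kinases that lie in tandem on chromosome 11, share exons with an annotated readthrough gene, so reads may be split between them in a way that was not tested. Nme1 was at 204, 184 and 218 CPM in Mx1-Cre, 171 and 147 in Vav-Cre and 180.5, 222 and 191 in wild type libraries. Nme2 was at 48.1, 42.3 and 66.1 CPM in Mx1-Cre, 47.0 and 41.1 in Vav-Cre and 53.7, 81.7 and 68.6 in wild type libraries. Vav-Cre libraries were below all wild type libraries for both, and for Nme2 the Mx1-Cre libraries overlapped the wild type ones. Nme2 had a fold change of -0.63 ± 0.23 in Vav-Cre (adjusted p = 0.271), -0.38 ± 0.21 in Mx1-Cre (adjusted p = 0.392) and -0.50 ± 0.18 in the average of both (adjusted p = 0.198). Nme1 was at -0.31 ± 0.15 in Vav-Cre (adjusted p = 0.401) and 0.03 ± 0.13 in Mx1-Cre (adjusted p = 0.937).

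Impdh2 and Umps were picked out after their values were seen. Impdh2, which directs purines to guanine nucleotides, was at 74.8, 78.9 and 79.3 CPM in Mx1-Cre, 65.6 and 62.2 in Vav-Cre and 73.2, 71.8 and 67.8 in wild type libraries, so the 3 groups did not overlap. The differences were small: 0.13 ± 0.12 in Mx1-Cre (adjusted p = 0.646) and -0.15 ± 0.13 in Vav-Cre (adjusted p = 0.695). Umps, which makes UMP, was at 357, 464 and 342 CPM in Mx1-Cre, 344 and 166 in Vav-Cre and 405, 365 and 325 in wild type libraries. The low value was in Vav-Cre 2 alone, and the fold change in Vav-Cre minus wild type was -0.52 ± 0.27 (adjusted p = 0.441). With Vav-Cre 2 as the only Vav-Cre library Umps was called lower against both other groups, the lone library being taken to vary like the others.

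For the purine list 10 of 13 tested genes were above 0 in Mx1-Cre minus wild type and 2 of 13 in Vav-Cre minus wild type, and for the pyrimidine list 7 of 7 and 1 of 7. With library totals alone the pyrimidine count in Mx1-Cre was 3 of 7, where the median over all tested genes was -0.07. Without Vav-Cre 2 the Vav-Cre counts were 6 of 13 and 3 of 7. None of these genes was called in either comparison. The smallest p in the purine list was that of Pfas in Mx1-Cre (0.45 ± 0.23, adjusted p = 0.368) and of Adssl1 in Vav-Cre (0.51 ± 0.21, adjusted p = 0.327). In the pyrimidine list Cmpk1 had it in Mx1-Cre (0.38 ± 0.13, adjusted p = 0.164) and Cad in Vav-Cre.

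The one-carbon enzymes held the widest difference between the knockout lines. Mthfd2, a mitochondrial folate enzyme that is low in most resting adult cells, was at 78.1, 61.8 and 84.3 CPM in Mx1-Cre, 47.9 and 27.0 in Vav-Cre and 36.1, 45.3 and 51.1 in wild type libraries. All Mx1-Cre libraries were above every other library, while Vav-Cre 1 lay within the wild type range and Vav-Cre 2 below it. The fold change was 0.76 ± 0.23 in Mx1-Cre minus wild type (95% interval 0.25 to 1.27, adjusted p = 0.117) and -0.24 ± 0.26 in Vav-Cre minus wild type (adjusted p = 0.759). In Vav-Cre minus Mx1-Cre it was -0.998 ± 0.26 (95% interval -1.58 to -0.42, adjusted p = 0.173). Mthfd2 passed 0.05 in Mx1-Cre minus wild type when DESeq2 or limma-voom was used, with adjusted p = 0.0217 and 0.0141, and when Vav-Cre libraries were left out of the fit, with adjusted p = 0.0460. Over all its alternatives that adjusted p ran between 0.0141 and 0.306. Leaving out Vav-Cre 1 put Vav-Cre minus Mx1-Cre at -1.47 (adjusted p = 0.0250), and leaving out Vav-Cre 2 at -0.64.

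Shmt2, the mitochondrial serine hydroxymethyltransferase, was at 134, 129.8 and 174 CPM in Mx1-Cre, 106 and 104 in Vav-Cre and 156, 156 and 142 in wild type libraries. Vav-Cre libraries were below all others for this gene. The fold change was -0.52 ± 0.16 in Vav-Cre minus wild type (adjusted p = 0.184), -0.05 ± 0.14 in Mx1-Cre minus wild type (adjusted p = 0.897) and -0.47 ± 0.16 in Vav-Cre minus Mx1-Cre (adjusted p = 0.248). Shmt1, its cytosolic counterpart, had Vav-Cre libraries at 105 and 85.9 CPM, below Mx1-Cre libraries at 128, 147 and 112 CPM and overlapping wild type libraries at 124, 121 and 93.5 CPM.

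Of 13 listed serine and one-carbon genes 12 were tested, and 10 of these were below 0 in Vav-Cre minus wild type. The only one called was Mthfd1, the cytosolic folate enzyme with 3 activities and not itself one of the 41. It was at 166, 181 and 187 CPM in Mx1-Cre, 112 and 70.6 in Vav-Cre and 239, 196 and 176 in wild type libraries. It fell in Vav-Cre minus wild type, with a fold change of -1.15 ± 0.21 (adjusted p = 0.0481), and stood at -0.19 ± 0.18 in Mx1-Cre minus wild type (adjusted p = 0.662). The test of the difference, Vav-Cre minus Mx1-Cre, gave -0.96 ± 0.21 (adjusted p = 0.130). That difference passed with DESeq2 (adjusted p = 0.00182) and without Vav-Cre 1 (-1.34, adjusted p = 0.0142), and stood at -0.66 without Vav-Cre 2. With DESeq2 the adjusted p in Vav-Cre minus wild type was 4.2e-05. The call was lost without wild type 1, 2 or 3, Mx1-Cre 1 or Vav-Cre 2, with adjusted p of 0.124, 0.178, 0.117, 0.0838 and 0.156. It was also lost with DESeq2 size factors, with only the groups compared and with the replicate number as a block, with adjusted p of 0.0510, 0.0620 and 0.0869. Psat1, of serine synthesis, had the smallest p of the list in Mx1-Cre minus wild type, at 0.68 ± 0.18 (adjusted p = 0.0765). Phgdh, the first enzyme of that pathway, had it in Vav-Cre minus Mx1-Cre, at -0.70 ± 0.14 (adjusted p = 0.0968).

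**Figure D3:**
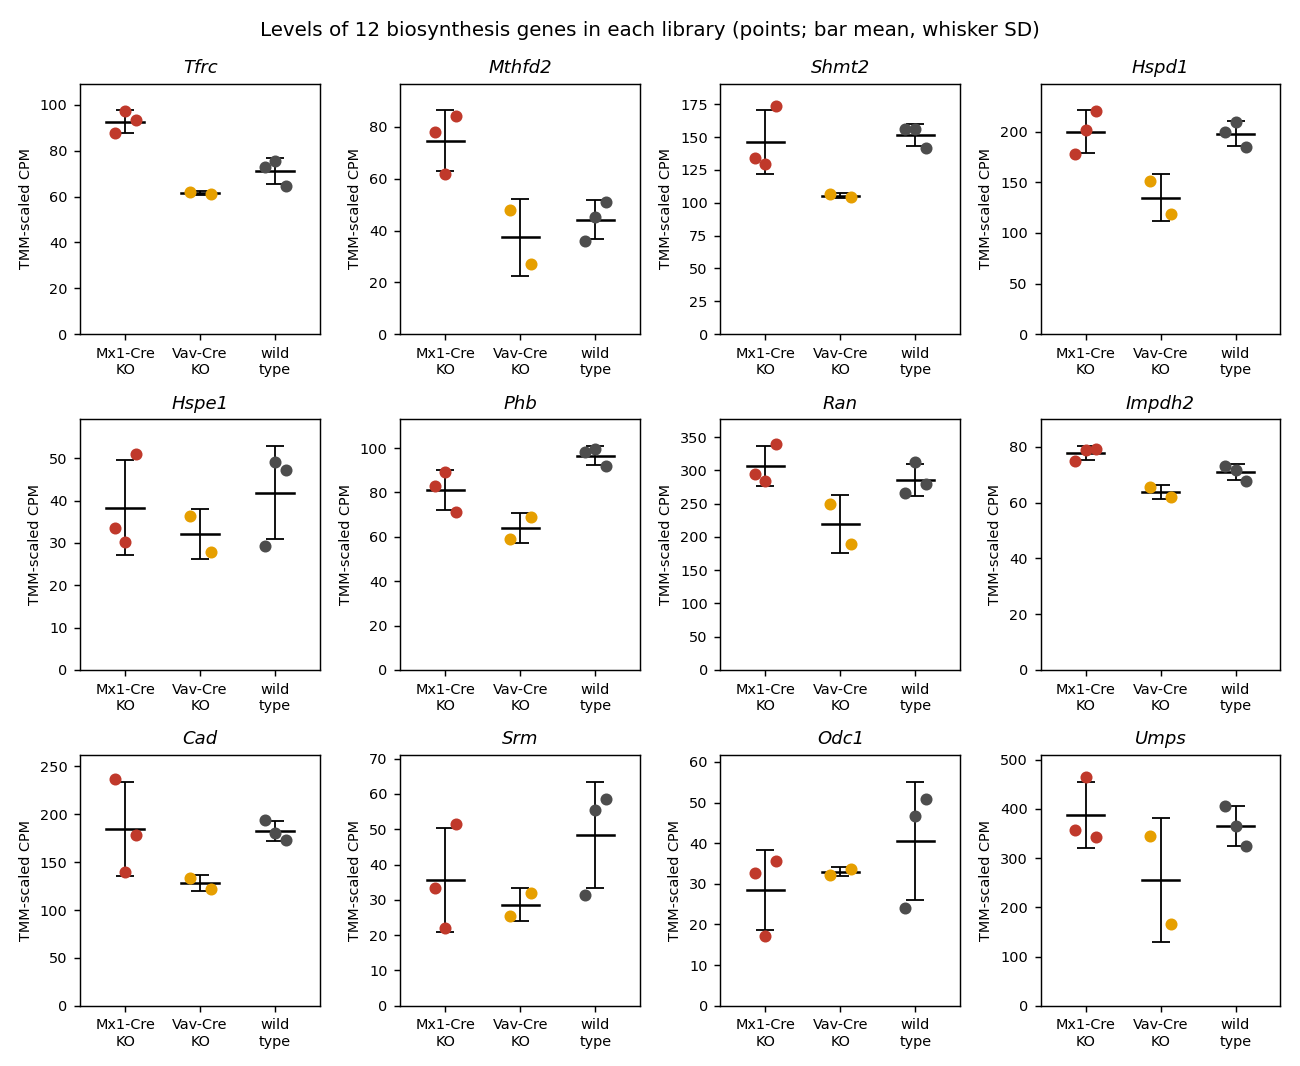
TMM-scaled CPM of 12 genes in each library (points), with the group mean (bar) and SD (whisker), for Mx1-Cre knockout (n = 3), Vav-Cre knockout (n = 2) and wild type (n = 3). Mthfd2 is higher in all Mx1-Cre libraries, and Tfrc, Shmt2, Hspd1, Phb, Ran, Impdh2 and Cad are lower in both Vav-Cre libraries than in all wild type libraries.

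Among the mitochondrial chaperone and import genes, Hspd1 and Hspe1 encode the 2 parts of the matrix chaperonin and start 111 bases apart on opposite strands of chromosome 1. Hspd1 was at 178, 201.5 and 220.1 CPM in Mx1-Cre, 151 and 118 in Vav-Cre and 199.9, 209.5 and 185 in wild type libraries. Hspe1 was at 33.5, 30.2 and 51.1 CPM in Mx1-Cre, 36.3 and 27.9 in Vav-Cre and 29.3, 49.2 and 47.1 in wild type libraries. Hspd1 was lower in both Vav-Cre libraries than in all others, whereas the groups overlapped for its neighbour Hspe1. The Hspd1 fold change was -0.56 ± 0.16 in Vav-Cre minus wild type (adjusted p = 0.157), -0.57 ± 0.16 in Vav-Cre minus Mx1-Cre (adjusted p = 0.185) and 0.01 ± 0.14 in Mx1-Cre minus wild type (adjusted p = 0.982). Over the alternatives the first of these adjusted p-values ran between 0.0378 and 0.545. Hspe1 was at -0.38 ± 0.29 in Vav-Cre (adjusted p = 0.626) and -0.13 ± 0.25 in Mx1-Cre (adjusted p = 0.856), and whether the neighbours differ in response was not tested.

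Phb and Cebpz were the members with all knockout libraries of both lines below all wild type libraries. Phb was at 82.8, 89.3 and 71.4 CPM in Mx1-Cre, 59.2 and 68.7 in Vav-Cre and 98.2, 99.7 and 91.8 in wild type libraries. The fold change was -0.25 ± 0.13 in Mx1-Cre minus wild type (adjusted p = 0.384), -0.59 ± 0.15 in Vav-Cre minus wild type (adjusted p = 0.119) and -0.42 ± 0.12 in the average of both (95% interval -0.69 to -0.16, adjusted p = 0.0986). Over the alternatives the last adjusted p ran between 0.0381 and 0.369. Its partner in the prohibitin complex, Phb2, overlapped between groups, at 101.1, 64.6 and 147 CPM in Mx1-Cre, 90.0 and 94.7 in Vav-Cre and 68.4, 96.1 and 94.6 in wild type libraries. Of 20 tested genes of mitochondrial chaperones and import, 13 were above 0 in Mx1-Cre minus wild type and 5 in Vav-Cre minus wild type, and none was called. These counts were 5 in Mx1-Cre without Mx1-Cre 3 and 10 in Vav-Cre without Vav-Cre 2. The smallest p in Mx1-Cre was that of Timm10, an import chaperone of the intermembrane space, at -0.53 ± 0.26 (adjusted p = 0.344).

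The 5 cytosolic chaperone genes were all below 0 in Vav-Cre minus wild type, with a median of -0.21, and all above 0 in Mx1-Cre minus wild type, with a median of 0.05. With library totals alone 1 of 5 was above 0 in Mx1-Cre minus wild type, where all tested genes had a median of -0.07. None was above 0 in Vav-Cre minus wild type. Without Vav-Cre 2, 4 of 5 were below 0 in Vav-Cre minus wild type, with a median of -0.17, and Cct3 was above it. Ruvbl2, an ATPase of chaperone and chromatin complexes, was at 149, 128 and 176 CPM in Mx1-Cre, 120.5 and 118 in Vav-Cre and 108, 159 and 139 in wild type libraries. Fkbp4, a partner of HSP90, was at 203, 189 and 226 CPM in Mx1-Cre, 156 and 178 in Vav-Cre and 193, 225 and 198 in wild type libraries. Vav-Cre libraries were the lowest of all for Fkbp4, and for Ruvbl2 they were below the Mx1-Cre libraries and within the wild type range. The Vav-Cre fold changes against wild type were -0.30 ± 0.14 for Fkbp4 (adjusted p = 0.407) and -0.19 ± 0.19 for Ruvbl2 (adjusted p = 0.744), and the Mx1-Cre ones were 0.01 ± 0.13 and 0.16 ± 0.17 (adjusted p = 0.988 and 0.710). All 8 genes of the TRiC chaperonin, which folds actin and tubulin and of which Cct3 and Cct5 are members, were below 0 in Vav-Cre minus Mx1-Cre, with a median of -0.26 and none called. Without Vav-Cre 2, 7 of 8 were below 0, with a median of -0.0729. The smallest p there was that of Cct7, at -0.35 ± 0.14 (adjusted p = 0.314). Of 7 genes of RUVBL complexes 6 were above 0 in Mx1-Cre minus wild type and 3 in Vav-Cre minus wild type, led in Mx1-Cre by Rpap3 at 0.45 ± 0.14 (adjusted p = 0.131).

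For the 4 translation genes the libraries of the 3 groups overlapped. Eif4a1, which unwinds the 5′ ends of messages, was at 163, 135 and 177 CPM in Mx1-Cre, 128 and 156 in Vav-Cre and 104, 122 and 148 in wild type libraries. Bzw2, an eIF5-mimic protein, was at 272, 255 and 305 CPM in Mx1-Cre, 279.6 and 231 in Vav-Cre and 271, 309.9 and 298 in wild type libraries. Wild type had the lowest mean for Eif4a1 and the highest for Bzw2. The Eif4a1 fold change was 0.34 ± 0.17 in Mx1-Cre (adjusted p = 0.334) and 0.19 ± 0.18 in Vav-Cre (adjusted p = 0.731), and the Bzw2 ones were -0.08 ± 0.13 (adjusted p = 0.827) and -0.20 ± 0.15 (adjusted p = 0.616). Eif4e, the cap-binding protein, and Pa2g4, a ribosome-associated growth regulator, are the others. In the list of 16 initiation genes 11 were above 0 in Mx1-Cre minus wild type and 8 in Vav-Cre minus wild type, with none called. Eif4ebp2, an inhibitor of eIF4E, had the smallest p of that list in both, at 0.63 ± 0.18 (adjusted p = 0.104) and 0.64 ± 0.20 (adjusted p = 0.195).

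Of the membrane carriers, Tfrc, the transferrin receptor that brings iron into the cell, had the smallest p of all 41 genes in Vav-Cre minus Mx1-Cre. It was at 87.6, 97.2 and 93.3 CPM in Mx1-Cre, 62.0 and 60.9 in Vav-Cre and 73.0, 75.6 and 64.6 in wild type libraries. The 3 groups did not overlap: Mx1-Cre libraries were above and Vav-Cre libraries below every wild type library. The fold change was 0.38 ± 0.12 in Mx1-Cre minus wild type (adjusted p = 0.145), -0.21 ± 0.14 in Vav-Cre minus wild type (adjusted p = 0.568) and -0.59 ± 0.14 in Vav-Cre minus Mx1-Cre (adjusted p = 0.148). Over the alternatives the last adjusted p ran between 0.00855 and 0.436.

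Slc3a2 and Slc7a5, the heavy and light chains of 1 amino acid carrier, had Vav-Cre fold changes of opposite sign, a difference between genes that was not tested. Slc3a2 was at 84.3, 73.8 and 112 CPM in Mx1-Cre, 90.8 and 124 in Vav-Cre and 69.5, 86.5 and 89.5 in wild type libraries. Slc7a5 was at 81.2, 38.5 and 96.5 CPM in Mx1-Cre, 53.2 and 44.1 in Vav-Cre and 60.0, 71.8 and 77.1 in wild type libraries. Against wild type, the Vav-Cre libraries were all above for the heavy chain and all below for the light chain. The Vav-Cre fold changes were 0.39 ± 0.21 for Slc3a2 (adjusted p = 0.456) and -0.52 ± 0.32 for Slc7a5 (adjusted p = 0.524), neither past the test. In Mx1-Cre minus wild type they were 0.14 ± 0.19 (adjusted p = 0.780) and 0.05 ± 0.28 (adjusted p = 0.952).

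Slc16a1, the lactate carrier MCT1, was at 100.1, 76.0 and 123 CPM in Mx1-Cre, 71.1 and 73.6 in Vav-Cre and 87.0, 100.4 and 120.4 in wild type libraries. Vav-Cre libraries were the lowest of all, though Mx1-Cre 2 came close to them. Its fold change was -0.50 ± 0.21 in Vav-Cre minus wild type (adjusted p = 0.328) and -0.04 ± 0.19 in Mx1-Cre minus wild type (adjusted p = 0.939). Of 12 tested carriers of amino acids, lactate and iron 9 were above 0 in Mx1-Cre minus wild type and 6 in Vav-Cre minus wild type, and none was called.

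Among the nuclear proteins, Ran was at 294, 284 and 340.3 CPM in Mx1-Cre, 249.8 and 189 in Vav-Cre and 265, 312 and 280.2 in wild type libraries. Set was at 1824, 1792 and 1443 CPM in Mx1-Cre, 1485 and 1371 in Vav-Cre and 1441, 1495 and 1448 in wild type libraries. Ran was lowest in both Vav-Cre libraries, and Set was high in 2 of 3 Mx1-Cre libraries. The Ran fold change was -0.38 ± 0.16 in Vav-Cre minus wild type (adjusted p = 0.340), -0.48 ± 0.16 in Vav-Cre minus Mx1-Cre (adjusted p = 0.256) and 0.10 ± 0.14 in Mx1-Cre minus wild type (adjusted p = 0.797). Without Vav-Cre 2 the Ran values were -0.19 in Vav-Cre minus wild type and -0.29 in Vav-Cre minus Mx1-Cre, and without Vav-Cre 1 they were -0.60 and -0.699. Set was at 0.21 ± 0.12 in Mx1-Cre (adjusted p = 0.442) and -0.03 ± 0.14 in Vav-Cre (adjusted p = 0.951). Of the others in this role, Cebpz (a nucleolar and transcription factor) and Apex1 (a DNA repair endonuclease) had both Vav-Cre libraries below all wild type libraries, while Prmt1, Prmt3 and Lyar overlapped with wild type in both lines.

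The 8 tested genes of the Ran cycle, which moves cargo through nuclear pores and guides the spindle, were all above 0 in Mx1-Cre minus wild type (median 0.27), 2 of 8 were above 0 in Vav-Cre minus wild type (median -0.23), and all were below 0 in Vav-Cre minus Mx1-Cre (median -0.48). The Mx1-Cre count was 8 of 8 under every scaling run, and the Vav-Cre count was 4 of 8 without Vav-Cre 2. None was called. Rangap1, the GTPase activator of Ran, had the smallest p in Mx1-Cre, at 0.64 ± 0.16 (adjusted p = 0.0723). Rcc1, the exchange factor of Ran, had it in Vav-Cre minus wild type, at -0.65 ± 0.24 (adjusted p = 0.270), and in Vav-Cre minus Mx1-Cre, at -0.94 ± 0.24 (adjusted p = 0.172). Fold changes of the list in Vav-Cre minus Mx1-Cre ran between -1.34 and -0.04. In the list of 7 arginine methyltransferases 3 were above 0 in each line, led by Prmt2 in Mx1-Cre at -0.38 ± 0.18 (adjusted p = 0.326) and by Prmt7 in Vav-Cre at -0.58 ± 0.18 (adjusted p = 0.203).

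The other members were Gart of purine synthesis, the mitochondrial genes Tfam (which packages mitochondrial DNA), C1qbp, Tomm40 and Timm23, the chaperone genes Cct3, Cct5 and Ruvbl1, the translation genes Eif4e and Pa2g4, and the nuclear genes Apex1, Prmt1, Prmt3, Lyar and Cebpz. In Mx1-Cre minus wild type their fold changes ran between -0.13 ± 0.12 for Cebpz and 0.32 ± 0.24 for Timm23. In Vav-Cre minus wild type they ran between -0.42 ± 0.23 for Apex1 and 0.22 ± 0.26 for Timm23. In Vav-Cre minus Mx1-Cre they ran between -0.41 ± 0.29 for Prmt1 and 0.03 ± 0.24 for Prmt3. The smallest adjusted p of any of them in these comparisons was 0.385, for Gart in Vav-Cre minus Mx1-Cre.

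Over all pathway lists, 92 of 96 genes that are not among the 41 were tested. In Mx1-Cre minus wild type 59 were above 0 and 33 below, with a median of 0.14. In Vav-Cre minus wild type 33 were above and 59 below, with a median of -0.09, and in Vav-Cre minus Mx1-Cre 16 were above and 76 below, with a median of -0.17. Without Vav-Cre 2 the Vav-Cre minus wild type count was 47 above and 46 below, with a median near 0 (0.0034). Without Mx1-Cre 3 the Mx1-Cre minus wild type count was 51 above and 41 below, with a median of 0.06. The Vav-Cre minus Mx1-Cre count was then 35 above and 57 below. Mthfd1 was the only one called, in Vav-Cre minus wild type.

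Genes of mitosis and markers of other cells were read beside these results. The 20 mitosis genes summed to 4796, 4074 and 4968 CPM in Mx1-Cre, 4091 and 1961 in Vav-Cre and 3057, 3035 and 3151 in wild type libraries. All 20 were above 0 in Mx1-Cre minus wild type (median 0.53) and all 20 below 0 in Vav-Cre minus Mx1-Cre (median -0.63), with none called. Without Vav-Cre 2 the count in Vav-Cre minus Mx1-Cre was 18 of 20 (median -0.21). In Vav-Cre minus wild type 5 of the 20 were above 0 with both libraries and 19 without Vav-Cre 2. Vav-Cre 1 had a mitosis sum above every wild type library, and Vav-Cre 2 the lowest of all libraries. Of the 41 biosynthesis genes 28 were below the wild type mean in Vav-Cre 1 (49.4% of all genes) and 35 in Vav-Cre 2 (51.1% of all genes), against 27, 4 and 20 in wild type 1 to 3. Vav-Cre 1 was thus close to wild type 1 by this count. Neutrophil and monocyte genes (9 of 10 listed were in the table) summed to 102 to 554 CPM in Mx1-Cre, 12.9 and 266 in Vav-Cre and 315 to 1088 in wild type libraries. Myeloid progenitor genes (6 of 6) summed to 152 to 206 CPM in Mx1-Cre, 144 and 351 in Vav-Cre and 391.6 to 628 in wild type libraries. Mast cell and basophil genes (6 of 6) summed to 24.8 to 41.2 CPM in Mx1-Cre, 16.5 and 241 in Vav-Cre and 10.4 to 14.3 in wild type libraries, the 241 being in Vav-Cre 2. Erythroid genes (8 of 8, with 2 at 0) summed to 39.6 to 60.3 CPM in Mx1-Cre, 19.1 and 24.9 in Vav-Cre and 35.3 to 55.2 in wild type libraries. Megakaryocyte genes (7 of 7) summed to 1006 to 1079 CPM in Mx1-Cre, 997 and 1035 in Vav-Cre and 1693 to 1931 in wild type libraries. Summed B cell genes were at most 83.2 CPM in any library, T and NK cell genes at most 7.53 and stromal and endothelial genes at most 86.7. Their part in the results was not tested, and in bulk samples fewer cells of a type and less RNA per cell cannot be told apart.

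Levels among the 41 genes spanned 2 orders of magnitude when divided by transcript length. In wild type libraries Cct5 averaged 569 CPM per kb, Set 516, Paics 261, Cct3 216 and Pa2g4 192, against 6.27 for Timm23, 4.21 for Prmt1 and 4.09 for Tomm40. The median coefficient of variation of CPM across libraries of a group was 13.5% in Mx1-Cre, 13.3% in Vav-Cre and 11% in wild type. It was widest for C1qbp, at 57.8% in Mx1-Cre, for Umps, at 49.1% in Vav-Cre, and for Odc1, at 35.6% in wild type. The steadiest were Paics, at 2.04% in Mx1-Cre, Tfrc, at 1.24% in Vav-Cre, and Set, at 2.01% in wild type.

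**Figure D4:**
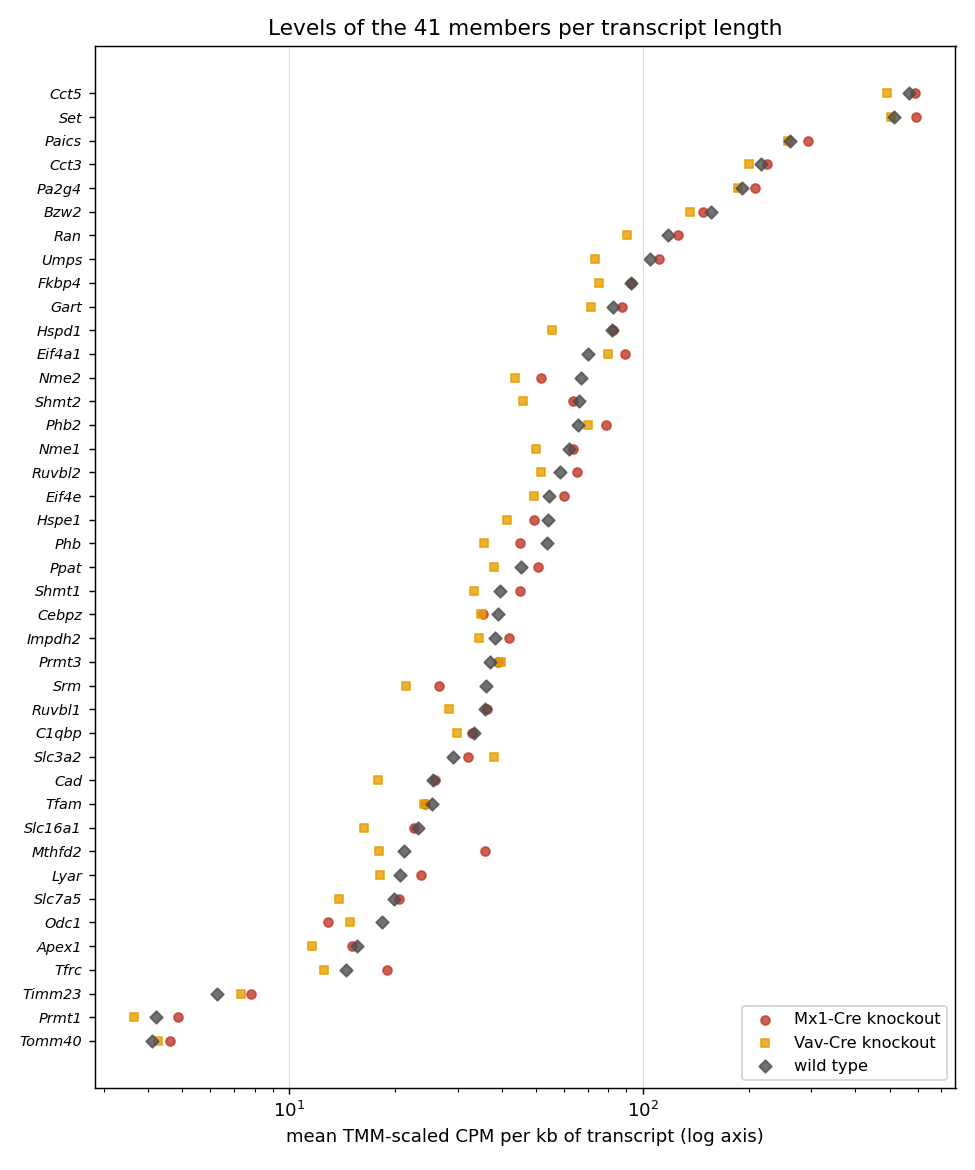
Mean TMM-scaled CPM per kb of transcript (log axis) for the 41 genes in Mx1-Cre knockout (n = 3), Vav-Cre knockout (n = 2) and wild type (n = 3) libraries, with genes ordered by the wild type level. The groups' points lie close together relative to the distance between genes, from Cct5 at the top (569 in wild type) to Tomm40 at the bottom (4.09 in wild type).

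Fold changes were also set against the promoter motif. The medians were 0.08 for the 14 with the motif and 0.09 for the 24 without it in Mx1-Cre minus wild type, -0.20 and -0.21 in Vav-Cre minus wild type, and -0.31 and -0.28 in Vav-Cre minus Mx1-Cre. Base composition and transcript length were read against the libraries as well. Across the 41 genes, transcript GC content correlated with the deviation from the group mean at r = -0.49 in Mx1-Cre 2 and r = 0.46 in Mx1-Cre 3, against -0.17 and 0.14 across 13173 tested genes, which are not independent replicates. Across the 41 it was at -0.31 and 0.31 in Vav-Cre 1 and 2 and 0.41 in wild type 2. The logarithm of transcript length correlated at r = -0.42 in Mx1-Cre 3, -0.61 in wild type 2 and 0.49 in wild type 1, against -0.11, -0.12 and 0.11 across all these genes. With 2 Vav-Cre libraries their deviations are equal and opposite by construction. The part of composition and length in the values was not tested.

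Several members share sequence with other annotated genes, and how such reads were counted is not given in the sources used here. At least 20% of 50-base words of the transcript occurred in other genes for 10 members: Timm23 (90.9%), Impdh2 (73.9%), Eif4a1 (65.3%), Ruvbl1 (56.2%), Nme2 (54.5%), Phb (47.3%), Hspd1 (44.8%), Odc1 (42.2%), Set (37.6%) and Hspe1 (36.1%). The values of these genes are uncertain to that extent, and 16 members shared no such word. In GENCODE M21 exons of 21 members overlap another annotated gene and those of 15 an antisense gene, whose reads cannot be told apart in libraries made without strand information.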

How the data were processed

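RNA-seq was read from 8 libraries of sorted mouse stem cells. The SMARTer Ultra Low Input kit and an unstranded protocol were used, per the labels' protocols. The submitters' processing notes name HTSeq, TopHat, edgeR and SAMtools and build mm9. For annotation, tool versions and strand setting nothing is given in the sources used here. The authors deposited raw read counts per gene symbol (23358 genes) and a table of CPM values, which equal count over library total for the 12457 genes at 1 CPM or more in at least 3 libraries. The CPM table served only for limma-trend on log2(deposited CPM + 1), a log2 scale with pseudocount 1. The reads carry no molecular identifiers.

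Genes were filtered with filterByExpr (minimum count 10, total 15), scaled by TMM (factors 0.961 to 1.03) and fitted with edgeR 4.0.16 (R 4.3.3) as 1 model over all 8 libraries with the 3 groups as terms. Quasi-likelihood tests of 4 contrasts were adjusted by Benjamini-Hochberg over 14086 genes, with 0.05 as threshold, and SE is the absolute log2 fold change over the square root of F. Both lines were averaged with equal weight. The scripts were tested on simulated data. Alternatives were DESeq2 1.42.0, limma 3.58.1 (voom with quality weights, trend), other scalings and filters, only the groups compared, the replicate block, and each library left out.

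Members and lists were chosen with earlier results of these data known. Genes given library by library are the 5 members with the smallest p in each comparison, the first by p in each role, and fixed pairs and textbook targets; Impdh2, Umps, Shmt1, Phb2, Mycn and Slamf1 were added after their values were seen. Promoter sequences come from RefSeq (GRCm38.p6), gene models from GENCODE M21, and no coordinates of mm9 were converted. A protein table was not used here.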

Additional observations from a re-analysis of the deposited data

Results flagged for a closer look

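Tfrc and Impdh2 were picked out because every Mx1-Cre knockout library lay above, and every Vav-Cre knockout library below, all wild type libraries. The difference itself, Vav-Cre minus Mx1-Cre, was -0.59 ± 0.14 for Tfrc (SE, adjusted p = 0.148) and -0.28 ± 0.13 for Impdh2 (adjusted p = 0.396), and neither passed 0.05 with edgeR's quasi-likelihood test. DESeq2 called Tfrc, with adjusted p = 0.00855, and the range over all alternatives was 0.00855 to 0.436. Slamf1, which is not one of the 41, had every Vav-Cre library above and every Mx1-Cre library below all wild type libraries. Its difference, Vav-Cre minus Mx1-Cre, was 0.99 ± 0.14 (adjusted p = 0.0346, edgeR's quasi-likelihood test), and the range over all alternatives was 3.2e-07 to 0.166.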

How the results depend on the processing

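The number of members called, 0 in each comparison with edgeR, became 1 in Mx1-Cre minus wild type, 2 in Vav-Cre minus wild type, 1 in the average of both lines and 3 in Vav-Cre minus Mx1-Cre with DESeq2. It became 1 in Mx1-Cre minus wild type and 2 in the average with limma-voom, and 1 in Mx1-Cre minus wild type when only the groups compared were fitted. Leaving out each library gave 0 to 1 called in Mx1-Cre minus wild type (Mthfd2, without Vav-Cre 1 or Vav-Cre 2), 0 to 1 in Vav-Cre minus wild type (Umps, without Vav-Cre 1) and 0 to 2 in Vav-Cre minus Mx1-Cre (Mthfd2 and Umps, without Vav-Cre 1). Other settings called 0, the replicate block included. Same-numbered libraries correlated at -0.07 to 0.13 in their deviations from group means, so the numbers were not taken to pair the samples. The block gave 0 called members in all comparisons. Over all alternatives the median fold change ran between -0.02 and 0.11 in Mx1-Cre minus wild type, between -0.35 and -0.11 in Vav-Cre minus wild type and between -0.37 and -0.24 in Vav-Cre minus Mx1-Cre.

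Of 949 values of named genes under an alternative, 879 kept direction and side of the threshold, and 22 newly passed it. Another 17 no longer passed it (8 of Mthfd1 in Vav-Cre minus wild type and 9 of Slamf1 in Vav-Cre minus Mx1-Cre). The other 31 changed sign. These reached -0.21 for Slc7a5 and -0.20 for Cad in Mx1-Cre minus wild type, and 0.18 for Paics in Vav-Cre minus wild type. In Mx1-Cre minus wild type, limma-voom, limma-trend, upper quartile scaling and library totals gave -0.0739, -0.0708, -0.0393 and -0.0678 for Hspd1. The last 3 of these settings gave -0.0460, -0.0196 and -0.0478 for Nme1, -0.12, -0.0012 and -0.0267 for Slc7a5, and -0.0940, -0.0341 and -0.0606 for Cad. The replicate block gave -0.0333 for Slc7a5 and -0.0074 for Cad. Leaving out each library gave -0.0632 to 0.0889 for Hspd1, -0.0303 to 0.12 for Nme1, -0.21 to 0.37 for Slc7a5, -0.20 to 0.19 for Cad, -0.39 to 0.0300 for Hspe1, -0.0472 to 0.28 for Slc3a2 and -0.0145 to 0.34 for Mycn, and -0.24 to 0.18 for Paics in Vav-Cre minus wild type. The cause was not tested. The part of depth was not tested.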
